A study of Caenorhabditis elegans with 9 samples.

Results

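The genes *hrg-9* (R186.1) and *hrg-10* (Y80D3A.9) of *Caenorhabditis elegans* encode proteins of the TANGO2 family and were followed at 3 concentrations of hemin, the chloride of iron(III) protoporphyrin. They were read by the probe sets whose only gene symbol in the array's annotation was one of these names. These were 3 of 22625 probe sets, 2 for *hrg-9* (177253_at and 173404_s_at) and 1 for *hrg-10* (182240_at). Probe set 177253_at, the brighter of the pair, stands for *hrg-9* where none is named. All 3 passed the filter on dim probe sets, and 0 probe sets named either gene among several symbols. In the RefSeq gene table (assembly WBcel235) both genes lie on chromosome V as separate protein-coding genes. A noncoding RNA gene, R186.9, overlaps one end of *hrg-9*, and signal from it cannot be told apart from that of *hrg-9* where a probe lies in the overlap.

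*C. elegans* cannot make heme and takes it up through the intestine. Transporters such as HRG-4 and HRG-1 bring it into cells, HRG-3 and HRG-7 are secreted and act between tissues, and the ABC transporter MRP-5 exports it. Work on HRG-9 and its relatives in worms, yeast and mammalian cells has placed these proteins in the movement of heme out of compartments that hold much of it, such as lysosome-related organelles and mitochondria. In humans, loss of TANGO2 causes a metabolic disorder, and the gene's name comes from a screen for transport and Golgi organization. The letters hrg stand for heme-responsive gene, a class of names that came from arrays of this kind, so a response of a gene so named is not independent evidence.

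Worms were grown in the liquid medium mCeHR-2 that held hemin at 4, 20 or 500 uM, and were collected at the late L4 larval stage, the last before adulthood. The labels give no strain, genotype or worm number. Total RNA of whole worms from 3 biological replicates per concentration, lettered A to C, was put on 9 Affymetrix whole genome arrays, 1 per replicate. Values are log2 expression values per probe set, and all differences are on this log2 scale. Whole worms mix all tissues, so more cells of a type and more RNA per cell cannot be told apart.

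Replicate A at 4 uM stood apart. Across probe sets its rank correlation (Spearman) with any other array was 0.973 to 0.985, whereas the 8 remaining arrays correlated with each other at 0.990 or more. Its values were also shifted upward, with a median of 5.577 against 5.445 to 5.484 on the other arrays. Its lower quartile was 3.901 against 3.702 to 3.775. Results that rest on it are therefore given with and without it. Of all 16911 probe sets tested, 154 (0.911%) differed between 4 and 20 uM hemin, 41 (0.242%) between 500 and 20 uM and 350 (2.07%) between 500 and 4 uM, by limma at a Benjamini-Hochberg adjusted p under 0.05.

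The first question was how the members respond when heme is scarce, from 20 down to 4 uM hemin. At 4 uM hemin *hrg-9* read 4.67, 5.49 and 5.40 on replicates A, B and C. At 20 uM it read 4.33, 4.64 and 4.48, and at 500 uM 4.71, 4.65 and 4.71. Replicates B and C at 4 uM were the highest of the 9 arrays, whereas replicate A at 4 uM lay within the range of the 500 uM arrays and 0.03 above the highest 20 uM array. The 4 and 20 uM groups thus did not overlap, which held with 4 uM higher for 7.13% of all probe sets tested.

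The group means of *hrg-9* were 5.19 ± 0.45 at 4 uM, 4.48 ± 0.15 at 20 uM and 4.69 ± 0.03 at 500 uM (SD, n = 3 arrays each). The order was 4 uM, 500 uM, 20 uM, and neither pair of neighbours in it passed in the limma fit of all arrays. The difference of 0.70 between 4 and 20 uM (SE 0.19, 95% interval 0.28 to 1.13) corresponds to 1.63-fold. It did not pass in limma (adjusted p = 0.199). A difference at least as high was found for 1.21% of all probe sets tested. The study's design text names a 1.6-fold change as its limit, and 1.31% of probe sets tested reached it upward at 4 uM hemin. The brighter probe set of *hrg-9* was among them, at 1.63-fold. The dimmer probe set of *hrg-9*, 173404_s_at, was not, at 1.34-fold, and neither was that of *hrg-10*.

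**Figure D1:**
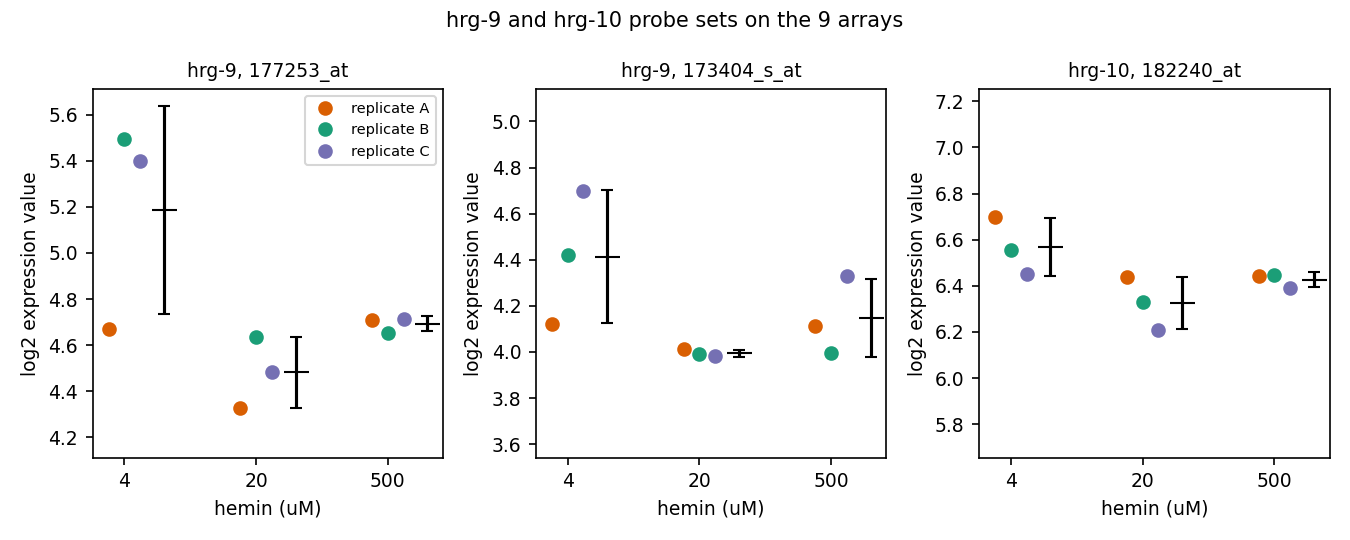
Log2 expression values (vertical axis) of the probe sets of hrg-9 and hrg-10 at 4, 20 and 500 uM hemin, with 1 point per array coloured by replicate letter and black bars for the mean and SD of 3 arrays. All panels span the same log2 range. At 4 uM hemin, hrg-9 (177253_at) reads 4.67 on replicate A against 5.49 and 5.40 on B and C, and hrg-10 stays between 6.21 and 6.70 on all arrays.

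Without 4 uM replicate A the same difference of *hrg-9* was 0.96 (SE 0.10, 95% interval 0.74 to 1.19), or 1.95-fold, with a limma adjusted p of 0.000788. In that fit 1.19% of probe sets rose at 4 uM. Leaving out any other single array gave 0.55 to 0.78 and adjusted p between 0.267 and 0.693. A positive difference was therefore obtained in each of the 9 fits, and the call was made only in the one without 4 uM replicate A.

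**Figure D2:**
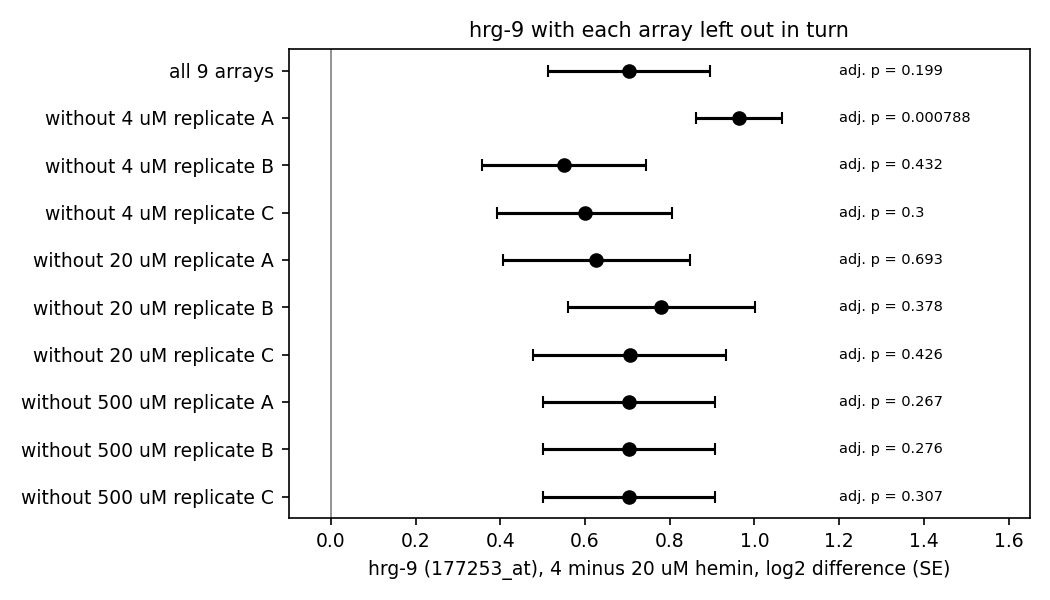
Log2 difference of hrg-9 (177253_at) between 4 and 20 uM hemin (horizontal axis, points with 1 SE) in the fit of all 9 arrays and with each array left out in turn, with the limma adjusted p beside each. Only the fit without 4 uM replicate A, at 0.96, lies past the threshold of 0.05.

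The second probe set of *hrg-9*, 173404_s_at, carries a suffix that Affymetrix gives to probe sets that can match more than 1 transcript. It read 4.12, 4.42 and 4.70 on replicates A to C at 4 uM, 4.01, 3.99 and 3.98 at 20 uM, and 4.11, 3.99 and 4.33 at 500 uM. Again all 4 uM arrays lay above all 20 uM arrays, as for 7.13% of all probe sets tested, with replicate A lowest. The 500 uM arrays overlapped both groups. The values of this probe set lay close to the filter limit, a mean of 3.75, below which probe sets were left out. The difference between 4 and 20 uM was 0.42 (SE 0.14, limma adjusted p = 0.364), and 0.57 (SE 0.12, adjusted p = 0.0435) without 4 uM replicate A. Both probe sets thus gave a difference of the same sign, larger without that array, with the smaller size on the dimmer one.

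The values of *hrg-10* spanned 6.21 to 6.70 over the 9 arrays. It read 6.70, 6.56 and 6.45 at 4 uM on replicates A to C, 6.44, 6.33 and 6.21 at 20 uM, and 6.44, 6.45 and 6.39 at 500 uM. Its 4 uM arrays lay above all 20 uM arrays, by 0.01 at the closest, as for 7.13% of all probe sets tested. Here replicate A was the highest of the 4 uM arrays, where for *hrg-9* it was the lowest.

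The means of *hrg-10* were 6.57 ± 0.13, 6.33 ± 0.11 and 6.43 ± 0.03 at 4, 20 and 500 uM (SD, n = 3 arrays each), the same order as for *hrg-9*. Neither pair of neighbours in that order passed in limma. The difference between 4 and 20 uM was 0.24 (SE 0.10, adjusted p = 0.521), and 0.18 (SE 0.10, adjusted p = 0.574) without 4 uM replicate A. Its 95% interval of 0.02 to 0.47 corresponds to 1.01-fold to 1.38-fold, so a rise beyond 1.38-fold lies outside it. A difference at least as high as that of *hrg-10* was found for 9.32% of probe sets tested.

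Excess heme was examined by setting the 500 uM arrays against those of 20 uM. The gene *hrg-9* read higher on every 500 uM array than on any 20 uM array, by 0.02 at the closest, a separation found with 500 uM higher for 9.04% of all probe sets tested. The difference was 0.21 (SE 0.19, 95% interval -0.22 to 0.64, limma adjusted p = 0.938), and 0.353 was the adjusted p without 4 uM replicate A. On 173404_s_at it was 0.15 (SE 0.14, adjusted p = 0.949). For *hrg-10* it was 0.10 (SE 0.10, 95% interval -0.12 to 0.33, adjusted p = 0.949). Neither gene was called in this comparison, in which 0.154% of probe sets rose.

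Between the extremes, 500 minus 4 uM, *hrg-9* differed by -0.49 (SE 0.19, limma adjusted p = 0.336) and *hrg-10* by -0.14 (SE 0.10, adjusted p = 0.588), where 1.3% of probe sets fell. For *hrg-10* every 500 uM array lay below every 4 uM array, by a margin under the second decimal, as for 6.69% of all probe sets tested. Without 4 uM replicate A the value of *hrg-9* was -0.75 (SE 0.10, adjusted p = 0.00334) and passed, as did 1.46% of probe sets in that direction. That of 173404_s_at was -0.41 (SE 0.12, adjusted p = 0.139) and did not pass. This comparison shares its 4 uM arrays with that of 4 against 20 uM, so the results are not independent.

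**Figure D3:**
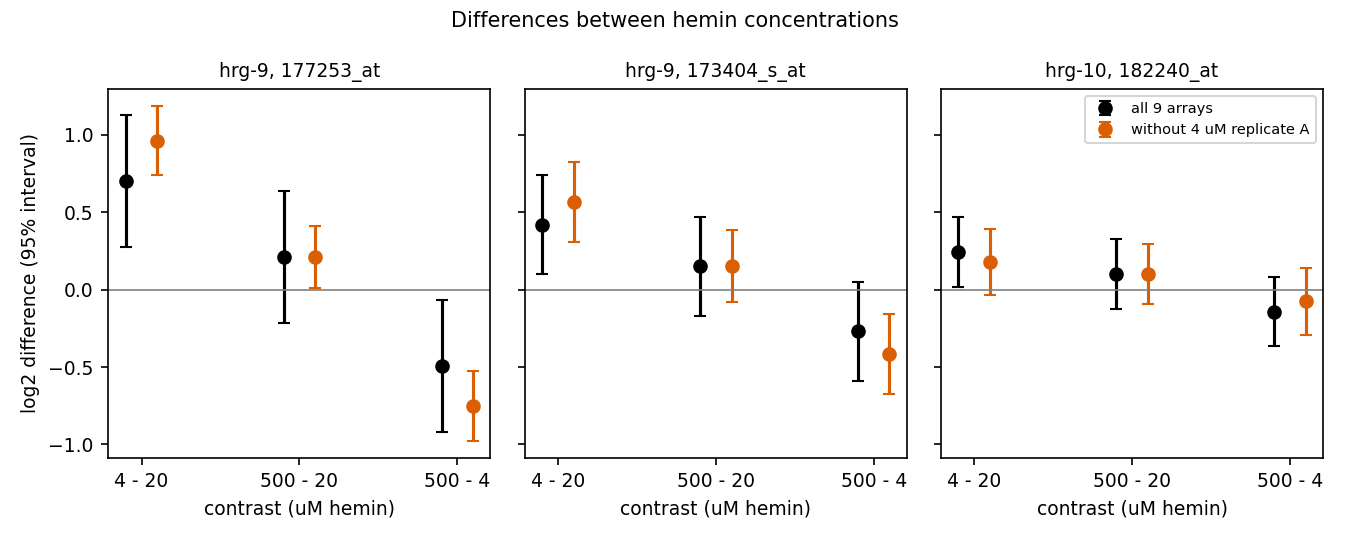
Log2 differences (vertical axis, points with 95% intervals from limma) of each probe set for 4 minus 20, 500 minus 20 and 500 minus 4 uM hemin, from all 9 arrays (black) and without 4 uM replicate A (orange). For hrg-9 (177253_at) leaving the array out moves 4 minus 20 uM from 0.70 to 0.96 and narrows the interval, and for hrg-10 it moves 0.24 to 0.18.

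Over the 3 groups together limma's moderated F-test gave adjusted p = 0.238 for *hrg-9*, 0.447 for 173404_s_at and 0.596 for *hrg-10*, in a table of which 1.62% passed it. An exact permutation test of the plain F statistic, over the 280 ways of parting 9 arrays into 3 groups of 3, gave p = 0.0321 for *hrg-9*, 0.0464 for 173404_s_at and 0.0179 for *hrg-10*. These 3 permutation values are not adjusted for the number of probe sets on the array, and the smallest p this design allows is 0.00357. Without 4 uM replicate A the exact values were 0.00357, the smallest possible, 0.0429 and 0.0929.

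Whether the paralogs responded differently was tested on the value of *hrg-9* less that of *hrg-10* on each array. The change of *hrg-9* from 20 to 4 uM exceeded that of *hrg-10* by 0.46 (SE 0.29), and the exact permutation test over the 3 groups gave p = 0.311. Without 4 uM replicate A the excess was 0.79 (SE 0.14) and the exact p 0.025. With 173404_s_at in place of 177253_at the exact p was 0.75, and 0.143 without that array. A different response of the paralogs was thus found in 1 of these 4 tests, the one with the brighter *hrg-9* probe set and without 4 uM replicate A.

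The members' differences were set beside those of other genes of the pathway. This list was chosen with earlier results of these data known, and its hrg names came from arrays of this kind. Its counts, and the members' rank within it, are therefore a description and not independent evidence. Of 7 measured genes of heme transport and trafficking, the members included, 4 rose at 4 against 20 uM hemin, 0 fell and 3 did not pass, beside 0.68% of all probe sets that rose. The median difference was 2.46, or 3.97 over the 5 genes other than *hrg-9* and *hrg-10*, against 0.02 over all probe sets tested. The genes *hrg-2*, *hrg-5* and *hrg-6* were not measured under these symbols.

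The rises were 5.66 (adjusted p = 1.41e-05) for the secreted *hrg-3*, 4.01 (adjusted p = 6.05e-07) for the secreted *hrg-7*, 3.97 (adjusted p = 1.99e-07) for the transporter gene *hrg-1* and 1.59 (adjusted p = 0.000133) for the exporter gene *mrp-5*. The transporter gene *hrg-4* differed by 2.46 (adjusted p = 0.144). Of the 7 genes, *hrg-9* had the second smallest difference and *hrg-10* the smallest. Without 4 uM replicate A, 6 of the 7 rose, *hrg-9* and *hrg-4* now among them and *hrg-10* not. At 500 against 20 uM hemin 1 of the 7 fell, *hrg-7*, and 0 rose, where 0.0887% of all probe sets fell. Dropping replicate B or C at 20 uM, or else replicate A or B at 500 uM, ended the call of *hrg-7* (limma adjusted p up to 0.0785), and without 4 uM replicate A *hrg-4* fell too (adjusted p = 0.0212).

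On 4 uM replicate A itself, the heme genes were not equally low. Against the mean of replicates B and C, *hrg-9* read -0.78 on it and 173404_s_at -0.44. The deviation was -2.76 for *hrg-4*, -1.41 for *hrg-3*, -0.31 for *mrp-5*, -0.20 for *hrg-1*, -0.18 for *hrg-7* and 0.20 for *hrg-10*. Over all probe sets tested the median deviation of this array was 0.07, and the 5th and 95th percentiles were -0.62 and 0.76. The value of *hrg-9* lay outside these percentiles and that of *hrg-10* inside them, and 3.05% of probe sets tested deviated as far downward as *hrg-9*.

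**Figure D4:**
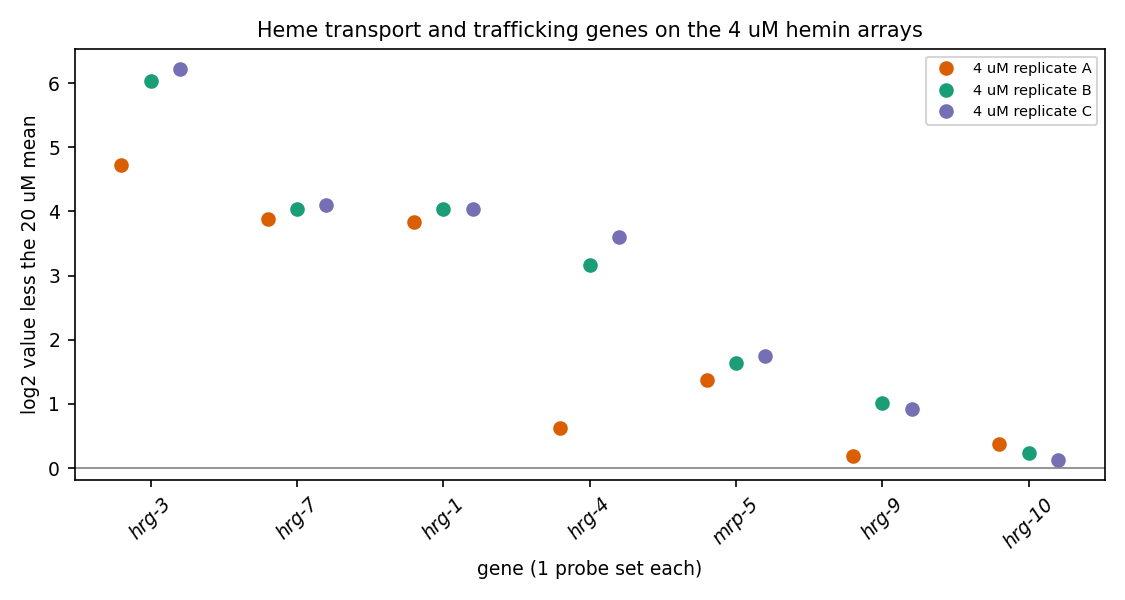
Log2 value of 7 heme transport and trafficking genes on each 4 uM hemin array, less the gene's mean over the 20 uM arrays (vertical axis), with 1 coloured point per replicate and genes ordered by their mean difference. Replicate A lies below B and C for all but hrg-10, furthest for hrg-4, and near 0 for hrg-9.

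At 4 against 20 uM hemin, some markers of yolk and of oocytes and embryos, and 1 marker of the epidermis, were called higher. Over all probe sets tested 0.68% were called higher and 0.911% either way, the shares to set beside the marker counts. The mean log2 value over 5 yolk protein genes was 7.17 to 8.0 on the 4 uM arrays, 5.56 to 6.51 on the 20 uM arrays and 4.66 to 5.85 on the 500 uM arrays. Of the 5, 2 rose at 4 against 20 uM, *vit-1* by 0.59 (limma adjusted p = 0.0454) and *vit-2* by 2.61 (adjusted p = 0.0252). Dropping replicate A at 4 uM raised this to 5 genes. Dropping the replicate B array of any single hemin level left 0, as did dropping replicate C at 4 uM or replicate A at 20 uM, and dropping replicate C at 500 uM left 1.

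Over 9 oocyte and embryo markers the mean was 7.98 to 8.41 at 4 uM, 7.57 to 7.63 at 20 uM and 7.33 to 7.63 at 500 uM, with 3 of 9 called higher at 4 against 20 uM, in all 9 fits that leave out an array too. They were *perm-2*, of the eggshell's permeability barrier, at 1.72 (limma adjusted p = 0.000769), and the RNA-binding protein genes *pos-1* at 0.95 (adjusted p = 0.00136) and *puf-5* at 0.75 (adjusted p = 0.00627). Of 5 epidermis markers 1 rose, the collagen gene of the adult cuticle *col-19*, by 2.28 (limma adjusted p = 0.00874, and 0.057 without 20 uM replicate B). Without 4 uM replicate A another of them, the collagen gene *dpy-7*, fell by 0.52 (adjusted p = 0.026). With all arrays 3 of the 5 epidermis markers had a negative difference, and the median was -0.03. Their mean was 9.94 to 10.70 at 4 uM, 9.89 to 10.11 at 20 uM and 9.57 to 9.87 at 500 uM, so the 4 and 20 uM arrays overlapped. Over 10 sperm markers the mean was 8.16 to 9.36, 8.05 to 8.33 and 7.27 to 7.78, of which limma called 0 at 4 against 20 uM, although 5 had p under 0.05 before adjustment.

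At 500 against 4 uM, where *hrg-9* passed without 4 uM replicate A, that same fit called 5 of 5 yolk, 5 of 10 sperm, 3 of 9 oocyte and embryo and 1 of 5 epidermis markers lower, and 0 of these lists higher. Over all probe sets tested 1.46% were called lower in that fit, and 1.3% with all arrays. With all arrays the counts were equal, and the yolk genes were the 2 above with *vit-4*, *vit-5* and *vit-6*. The sperm markers called lower were *msp-3*, *msp-19*, *msp-31*, *msp-49* and *msp-78*, with adjusted p of 0.0123 to 0.0297 on all arrays, whose major sperm protein genes are near copies that their probe sets may not tell apart. Dropping 4 uM C gave 8 called sperm markers, dropping B at either 4 or 500 uM gave 0, dropping C at 20 or at 500 uM gave 1, and dropping 20 uM A, 20 uM B or 500 uM A gave 3. The yolk count was 3 without B at 4 uM or A or B at 500 uM. It was 4 without any other single array except 4 uM A, whose removal left it at 5. The oocyte and embryo count was 5 without C at 4 uM.

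On 4 uM replicate A these lists did not go one way. Its median deviation from the mean of replicates B and C was -0.88 over the yolk genes, 0.97 over the sperm markers, 0.34 over the oocyte and embryo markers and 0.26 over the epidermis markers, beside -0.78 for *hrg-9*. The part of any of these markers in the difference of *hrg-9* was not tested. The 11 intestine markers lay at 10.08 to 10.20, 9.98 to 10.14 and 10.16 to 10.24. At 4 against 20 uM limma called 0 of the 11, beside 0.911% of all probe sets tested. Of the 11, 3 had p under 0.05 before adjustment. The intestine gene with the smallest F-test p, the lysozyme gene *lys-1*, differed by 0.25. Of 4 muscle and 4 neuron markers limma called 0 at 4 against 20 uM, with 0 at p under 0.05 before adjustment. The myosin gene *myo-3* and the synaptobrevin gene *snb-1* differed by 0.14 and 0.08. The median was 0.07 over the muscle markers, with 1 of 4 negative, and -0.09 over the neuron markers, with 3 of 4 negative. Without 4 uM replicate A the medians were -0.01 and 0.01.

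The cell compartments in which TANGO2-like proteins have been placed were examined through their own genes. Of 17 tested genes of lysosome-related organelles limma called 0 at 4 against 20 uM hemin, beside 0.911% of all probe sets tested. The median difference was 0.01, and 1 gene had p under 0.05 before adjustment. That gene was *glo-3*, needed to form the gut granules of the intestine, which differed by 0.41 (SE 0.14, adjusted p = 0.369) and rose by 0.56 (adjusted p = 0.0304) without 4 uM replicate A, on which it deviated by -0.46. The differences were 0.02 for *cup-5*, a relative of the lysosomal channel mucolipin, and -0.01 for *cdf-2*, a zinc transporter of gut granules.

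Of 20 tested genes of transport between endoplasmic reticulum and Golgi, limma called 0 at 4 against 20 uM hemin. The share called over all probe sets tested was 0.911%. Before adjustment 0 of the 20 reached p under 0.05. The median difference of these genes was -0.08, against 0.02 over all probe sets tested, and 18 of the 20 were negative. At 500 against 20 uM, which shares the 20 uM arrays, 15 of the 20 were negative. The coatomer genes *copa-1* and *copb-2* differed by -0.21 (adjusted p = 0.599) and -0.06, and *tmem-131*, which serves collagen secretion, by 0.13. Without 4 uM replicate A these values were -0.16, -0.07 and -0.05, and limma called 0 of the 20. Of 8 genes of mitochondrial heme use limma called 0, beside the same 0.911%, with 0 at p under 0.05 before adjustment. Their median was -0.05. The differences were -0.05 (SE 0.38) for the cytochrome c gene *cyc-2.2*, 0.14 for *cox-15*, of heme A synthesis, and -0.21 for the cytochrome c1 gene *cyc-1*. Without 4 uM replicate A they were -0.52 (SE 0.27), 0.12 and -0.06, and limma again called 0 of the 8. At 500 against 20 uM hemin limma called 0 genes of these 3 lists, beside 0.242% of all probe sets tested. Of the lists, 0, 1 and 0 genes reached p under 0.05 before adjustment.

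The chromosomal neighbours of *hrg-9* and *hrg-10* were examined next. Of the 3 nearest protein-coding genes on each side of each member, 12 in all, 10 were measured and 6 passed the filter on dim probe sets. At 4 against 20 uM hemin limma called 0 of the 6, beside 0.911% of all probe sets tested. Before adjustment 0 reached p under 0.05, and 1 difference was positive. Without 4 uM replicate A limma again called 0, and 2 differences were positive. Next to *hrg-9*, the differences were -0.08 for *mpst-7*, -0.07 for *eif-3.K*, a subunit of a translation initiation factor, -0.25 for *pqn-68* and -0.07 for R186.3. Near *hrg-10* they were -0.19 for the cytochrome P450 gene *cyp-42A1* and 0.15 for Y39B6A.43. Without 4 uM replicate A *mpst-7* moved to 0.05, R186.3 to -0.19 and Y39B6A.43 to 0.05. The genes *srd-35*, Y80D3A.8, *ptr-22* and *ztf-20* were too dim to be tested, with means of 2.33 to 3.37 in every group.

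The genes whose profile over the 9 arrays was most like that of *hrg-9* were found by the root mean square difference between log2 profiles, each less its own mean, among 15845 tested probe sets with 1 gene symbol. The nearest were *clec-258*, of the C-type lectins, at 0.13, *ugt-48*, of the UDP-glucuronosyltransferases, at 0.16, and K10D11.2, K08D8.4 and W02G9.4 at 0.16, 0.16 and 0.17. All 5 read higher at 4 than at 20 uM hemin, by 0.55 to 0.79, and without 4 uM replicate A all 5 were called, with adjusted p of 0.00213 to 0.0258. Since they were picked for their likeness over these arrays, this is a description. The second probe set of *hrg-9* lay at 0.21 with 26 of the other 16910 tested probe sets nearer, and *hrg-10* at 0.35 with 1600 nearer.

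Nearest to *hrg-10* were *pch-2*, of meiotic chromosome surveillance, C27H6.9 and W02D7.6, at 0.04 to 0.05. Their differences between 4 and 20 uM hemin were 0.18, 0.23 and 0.27, and 0 of the 3 were called in limma. These distances lie below the SD of *hrg-10* between replicates at 4 and 20 uM, 0.11 to 0.13. They lie above its SD at 500 uM, 0.03.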

How the data were processed

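Total RNA of whole worms was hybridised to 9 arrays, 3 per hemin concentration. The deposited table holds 1 log2 value per probe set and array, normalized between arrays by the authors. Per the submitters' processing notes MAS5 and RMA were used, but the sources used here do not say which of them made the table. The range of 2.02 to 14.37 with nearly equal quartiles is the form of RMA values. Such summaries compress differences of dim probe sets, which touches both *hrg-9* probe sets. Detection calls and scan dates were not used here. The number of arrays limits the precision: the median SE of a log2 difference was 0.122.

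Control probe sets (77) were left out, as were the 25% of the rest with the lowest mean over the 9 arrays, and 16911 probe sets were fitted with limma 3.58.1 in R 4.3.3 (1 mean per concentration, 6 residual degrees of freedom, variances that follow the mean level). P-values are two-sided and adjusted by Benjamini-Hochberg within a contrast over all tested probe sets, with a threshold of 0.05. This fit was also run on simulated data with independent noise, built from its own means and variances. Those data held no array that stood apart as 4 uM replicate A did. Gene symbols came from the platform's annotation, and RefSeq's gene table gave neighbours only. Where a gene had several probe sets the one with the highest mean stood for it. Named were the members, all measured heme transport genes, of each other list up to 3 genes with the smallest F-test p and any called on all arrays, the genomic neighbours, and the 5 and 3 nearest profiles. The members and lists were chosen with earlier results of these data known. Alternatives were quantile normalization, centring, other filters and variance priors, the replicate block, array weights, fits of 6 arrays and leaving out each array. No pair of arrays shared more than 1081 values of 22625. Python 3.11.15, pandas 2.3.3 and matplotlib 3.10.9 were used.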

Additional observations from a re-analysis of the deposited data

How the results depend on the processing

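For *hrg-9* the array 4 uM replicate A decided the calls. Leaving out each array in turn gave 0.55 to 0.96 for 4 minus 20 uM, -0.75 to -0.34 for 500 minus 4 uM, and an F statistic of 4.04 to 48.3, and only the fit without that array passed (F adjusted p = 0.00158). Array weights, which gave it 0.148 against 0.673 to 3.93 for the others, led to 0.97 (adjusted p = 0.000102), -0.76 (adjusted p = 0.00187) and F = 57.1 (adjusted p = 0.000202). Under the other alternatives that could be fitted the 3 results of *hrg-9* kept their direction without a call. With the dimmest 50% left out *hrg-9* was not tested. For 500 minus 20 uM, and for *hrg-10* in all comparisons, every alternative run kept the direction and no call was made (adjusted p of 0.0777 or more). The excess of the *hrg-9* change over that of *hrg-10* at 4 minus 20 uM ran from 0.30 to 0.79. At 500 minus 20 uM it ran from -0.02 to 0.18, across 0.

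Counts of called probe sets, 154, 41 and 350 for 4 minus 20, 500 minus 20 and 500 minus 4 uM, ran from 69 to 315, 8 to 182 and 168 to 682 with 1 array left out. They were 899, 204 and 813 with array weights and 86, 203 and 159 where only the 6 arrays compared entered the fit. No clear pairing of the arrays by replicate letter was seen. Between arrays of different groups with the same letter, correlations of deviations from the group means were -0.15 to 0.29 (median 0.07). With different letters they were -0.33 to 0.31 (median -0.09). In 7 of 18 cases an array's best match in another group had its own letter. With the replicate block *hrg-9* differed by 0.70 (SE 0.16, adjusted p = 0.159) between 4 and 20 uM and *hrg-10* by 0.24 (adjusted p = 0.431), and the block changed no call of the members. Both *hrg-9* probe sets are dim, and without detection calls a level above background could not be set for them.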
